A study of Ambystoma mexicanum with 60 samples.

Results

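The cytosolic ribosomal proteins of the axolotl (*Ambystoma mexicanum*) embryo were followed here through the first cell divisions. They were taken as every transcript whose human symbol, as assigned in the authors' ortholog table, is RPL or RPS followed by a number, with or without a letter and a further number (as in RPL26L1), or is RPLP0, RPLP1, RPLP2 or RPSA. This rule found 157 of the 28909 transcripts in the deposited table, and the transcripts of a symbol were summed into 74 of 21858 genes, 45 of the large subunit (*rpl*) and 29 of the small subunit (*rps*). A gene here is a symbol, or a transcript without a symbol. Embryos were cut along the animal-vegetal axis, from the animal pole, where the egg nucleus lies, to the yolk-rich vegetal pole, and 5 sections from A (animal) to E (vegetal) were sequenced separately after rRNA depletion (TOMO-seq). The stages were the 1-cell (fertilized egg), 4-cell, 64-cell and 1K-cell embryo, with 3 single embryos per stage. Counts of 59 of the 60 labelled libraries were used, since section D of 1-cell replicate 3, marked as an outlier in its label, is not analysed here. The embryos came from 2 experiments with different parents and the labels do not assign them, so parents and stage cannot be told apart.

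The ribosome reads mRNA on its small subunit and joins amino acids on its large subunit, and each subunit is a set of ribosomal RNAs covered by ribosomal proteins, nearly all present once. In vertebrates most ribosomal protein mRNAs start with a terminal oligopyrimidine (TOP) tract, through which their translation is held back or released together. The egg of *Xenopus*, another amphibian, inherits a large store of ribosomes from the mother, and amphibian embryos first divide without growing.

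Library totals ranged from 1546418 to 6001350 counts (median 3881582), and the sums over the sections of an embryo ranged from 14842060 to 22190036. Replicates of a section differed by far more than sampling noise (chi-square per gene of 3.32 to 23.0 over 58 pairs), so no library was counted as a duplicate. The primordial germ cell markers *grip2*, *dnd1* and *nanos1* mark the vegetal pole. At the 1-cell stage they were higher in the vegetal than in the animal sections by 6.02 to 6.22 on the log2 scale. None of 10 blood and 10 follicle cell markers asked for was among the symbols counted. All 74 members had a mean embryo total above the minimum of 20 normalized counts in at least 1 stage, and over all embryos their mean totals ranged from 40.8 to 2135. Values below are counts normalized by median-of-ratios size factors unless stated otherwise. They are relative to the RNA of the library, so fewer cells holding an RNA and less RNA per cell cannot be told apart, and levels of different genes are not compared.

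The libraries differed in how counts were divided between ribosomal protein transcripts with a symbol and their listed paralogs. The ortholog table also lists paralogs of each symbol, and 24 of the counted transcripts listed for 23 members carried no symbol and could be added to 1 member each. Such a transcript is called a copy below. kallisto, the tool with which the authors counted, divides reads among similar transcripts by a likelihood model. The copies of *rpl12* and *rpl6* were counted in most libraries, and the other 22 copies of 21 members were counted mainly in the deepest ones. At the 1K-cell stage, the 8 libraries of 4534277 to 5883288 counts had 29.1 to 39.0% (median 34.7%) of the counts of these members and their copies on the copies. In the 7 libraries of 2753105 to 3958050 counts it was 0 to 1.92%. At the 64-cell stage, the 4 libraries of 5656292 to 6001350 counts had 6.71 to 41.8%, and the 11 libraries of 2393917 to 4295043 counts had 0 to 3.89%. The groups of libraries did not overlap at either stage. Of the 1-cell libraries, the 2 deep ones (4770618 and 5783104 counts) had 0.358 and 4.53%, the 12 shallower ones had up to 4.22%, and no 4-cell library had more than 0.844%. The deep 1K-cell libraries were B and D of replicate 1, A, C and E of replicate 2 and B, C and D of replicate 3, so that they were spread over all sections. The depth of 4400000 counts used to separate the libraries was chosen after the values were seen and lies in a gap without libraries.

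**Figure D1:**
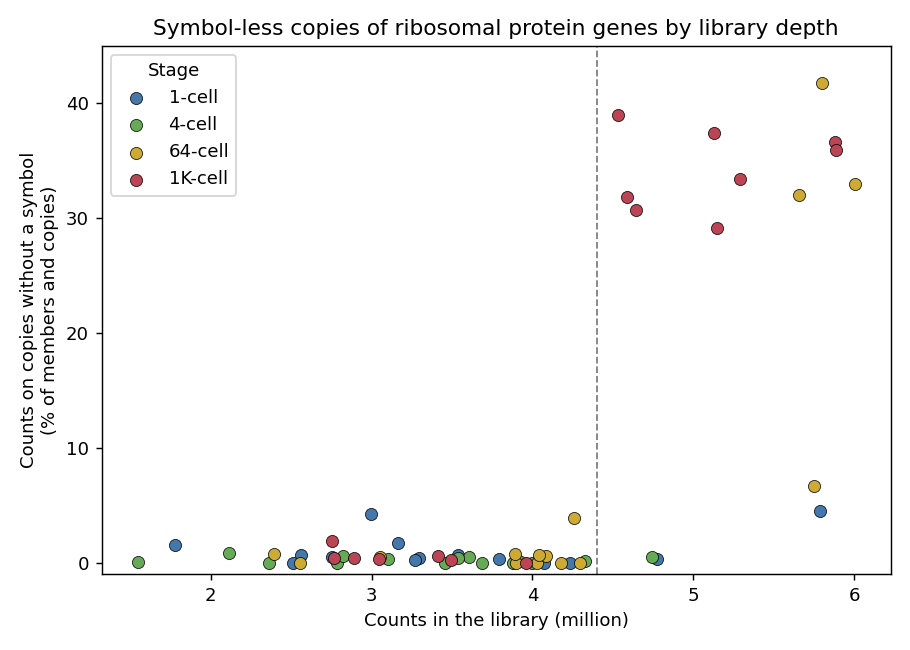
Each point is 1 of the 59 libraries, coloured by stage, with its total counts (M counts) on the x axis and, on the y axis, the percentage of counts on the 22 copies without a symbol among the counts of the 21 members and their copies. The 8 deep 1K-cell libraries lie between 29.1 and 39.0% and the 7 shallower ones at or below 1.92%, on either side of the dashed line at 4400000 counts.

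*rps12*, which encodes a small subunit protein, showed the division most clearly. In the 8 deep 1K-cell libraries the member was at 0 and its copy had 58.7 to 98.0 normalized counts, and in the 7 shallower libraries the member had 53.1 to 114 and the copy was at 0. One of the pair was thus at 0 in each of the 15 libraries. The coefficient of variation over these libraries was 118% for the member alone and 22.7% for the sum of both. *rpl36* had one of the pair at 0 in 14 of the 15 libraries, with a coefficient of variation of 109% alone and 19.6% summed. The Pearson correlation of member and copy over the 15 libraries, which share their depth, was -0.91 for *rps12* and -0.96 for *rpl36*. Among the 16 members whose own counts and copies both averaged at least 10 in these libraries, the sum was less variable than the member alone in 12 and the correlation was negative in 14.

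The sums of 5 members were lower in all deep than in all shallow 1K-cell libraries. Among them, *rpl27* averaged 11.9 in the deep and 64.3 in the shallow libraries, *rpl32* averaged 62.5 and 146, *rpl36* averaged 1.23 and 61.4, and *rps12* averaged 0 and 71.2. None of these 5 differed in this way once its copy was added: *rpl27* then averaged 75.1 in the deep and 64.3 in the shallow libraries, and *rps12* averaged 73.3 and 71.2. Of all genes, 0.0366% were lower in every deep library. With copies added, *rps25* was the only member whose deep (178) and shallow (105) libraries did not overlap. Of all genes with copies added, 0.203% were higher and 0.0092% lower in every deep library. The split also ran between transcripts of 1 symbol. For *rps15a*, transcript AMEXTC_0340000067685 averaged 329.6 in the deep and 3.14 in the shallow libraries, and AMEXTC_0340000070917 averaged 1.70 and 254.7. Totals below are sums per symbol. Changes of most single members are also given with their copies added, where they have any, or from the 44 libraries under 4400000 counts. These are 12, 14, 11 and 7 libraries from the 1-cell to the 1K-cell stage. Their sums take in different sections in different embryos. At the 1K-cell stage these are A, C and E of replicate 1, B and D of replicate 2 and A and E of replicate 3. Stage and section are therefore mixed in that setting. Sequences of members and copies were not compared, so whether reads of the same gene were counted on either is not known. Whether depth itself or another property of the deep libraries lay behind these differences was not tested.

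**Figure D2:**
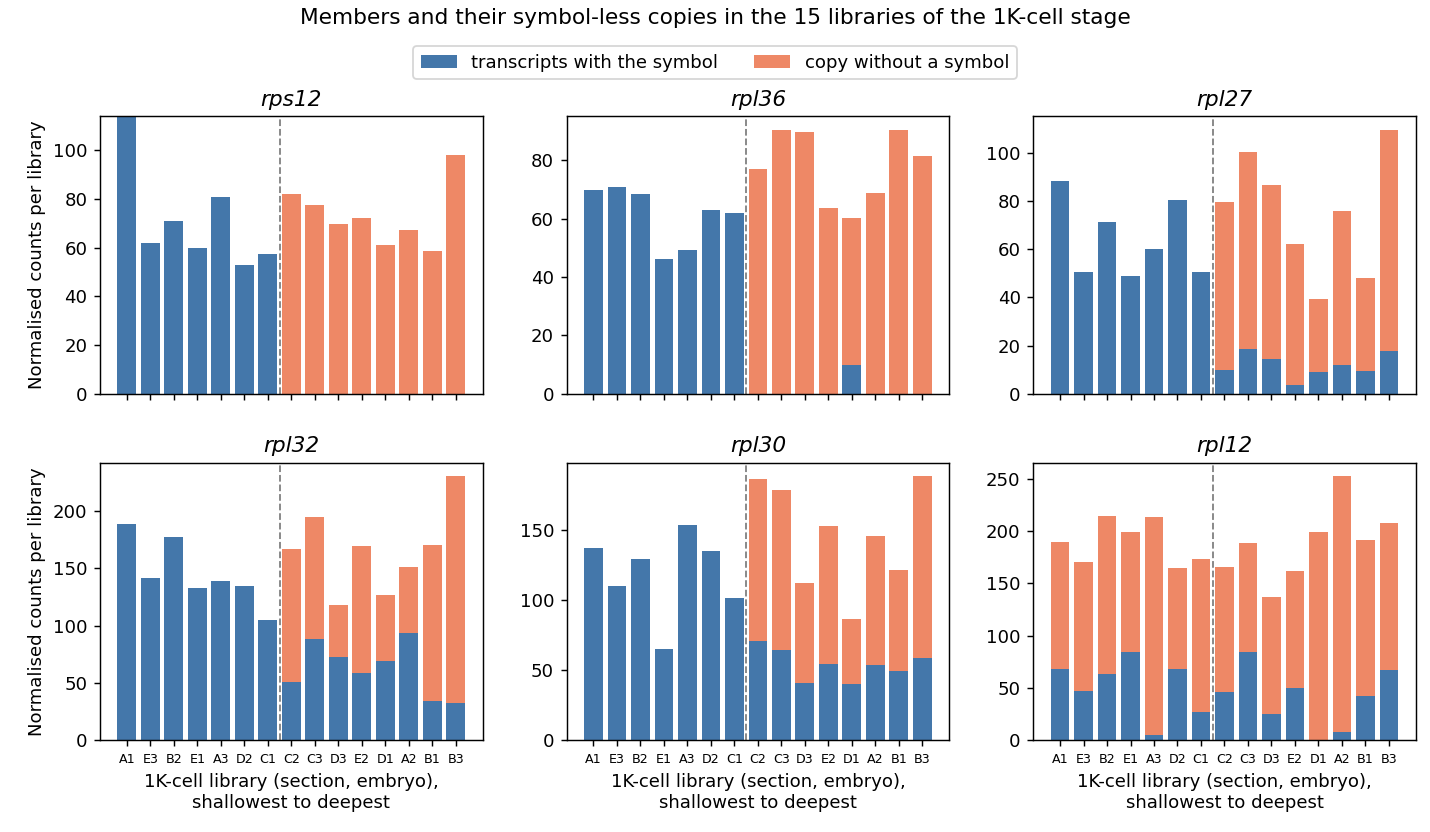
Each panel shows 1 gene in the 15 1K-cell libraries, ordered from the shallowest to the deepest on the x axis, with normalized counts of the transcripts carrying the symbol (blue) and of the copy without a symbol (orange) stacked, and a dashed line at 4400000 counts. For *rps12* the bars are orange in the 8 deep libraries (58.7 to 98.0) and blue in the 7 shallow ones (53.1 to 114), and for *rpl12* the orange part is present in all 15.

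The 74 genes held 0.313 ± 0.011% of the counts in 1-cell embryos, 0.323 ± 0.056% in 4-cell embryos, 0.246 ± 0.046% in 64-cell embryos and 0.258 ± 0.033% in 1K-cell embryos (SD, n = 3 each). The embryos of the 64-cell stage (0.216 to 0.299%) and 1K-cell stage (0.223 to 0.289%) lay below those of the 1-cell stage (0.306 to 0.325%), and the 4-cell embryos (0.291 to 0.388%) overlapped both 1-cell and 64-cell embryos. With copies added, the 1K-cell embryos held 0.239 to 0.313% and overlapped the 1-cell embryos (0.307 to 0.326%). Large subunit genes held 62.9 to 65.3% of the ribosomal protein counts in every embryo.

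**Figure D3:**
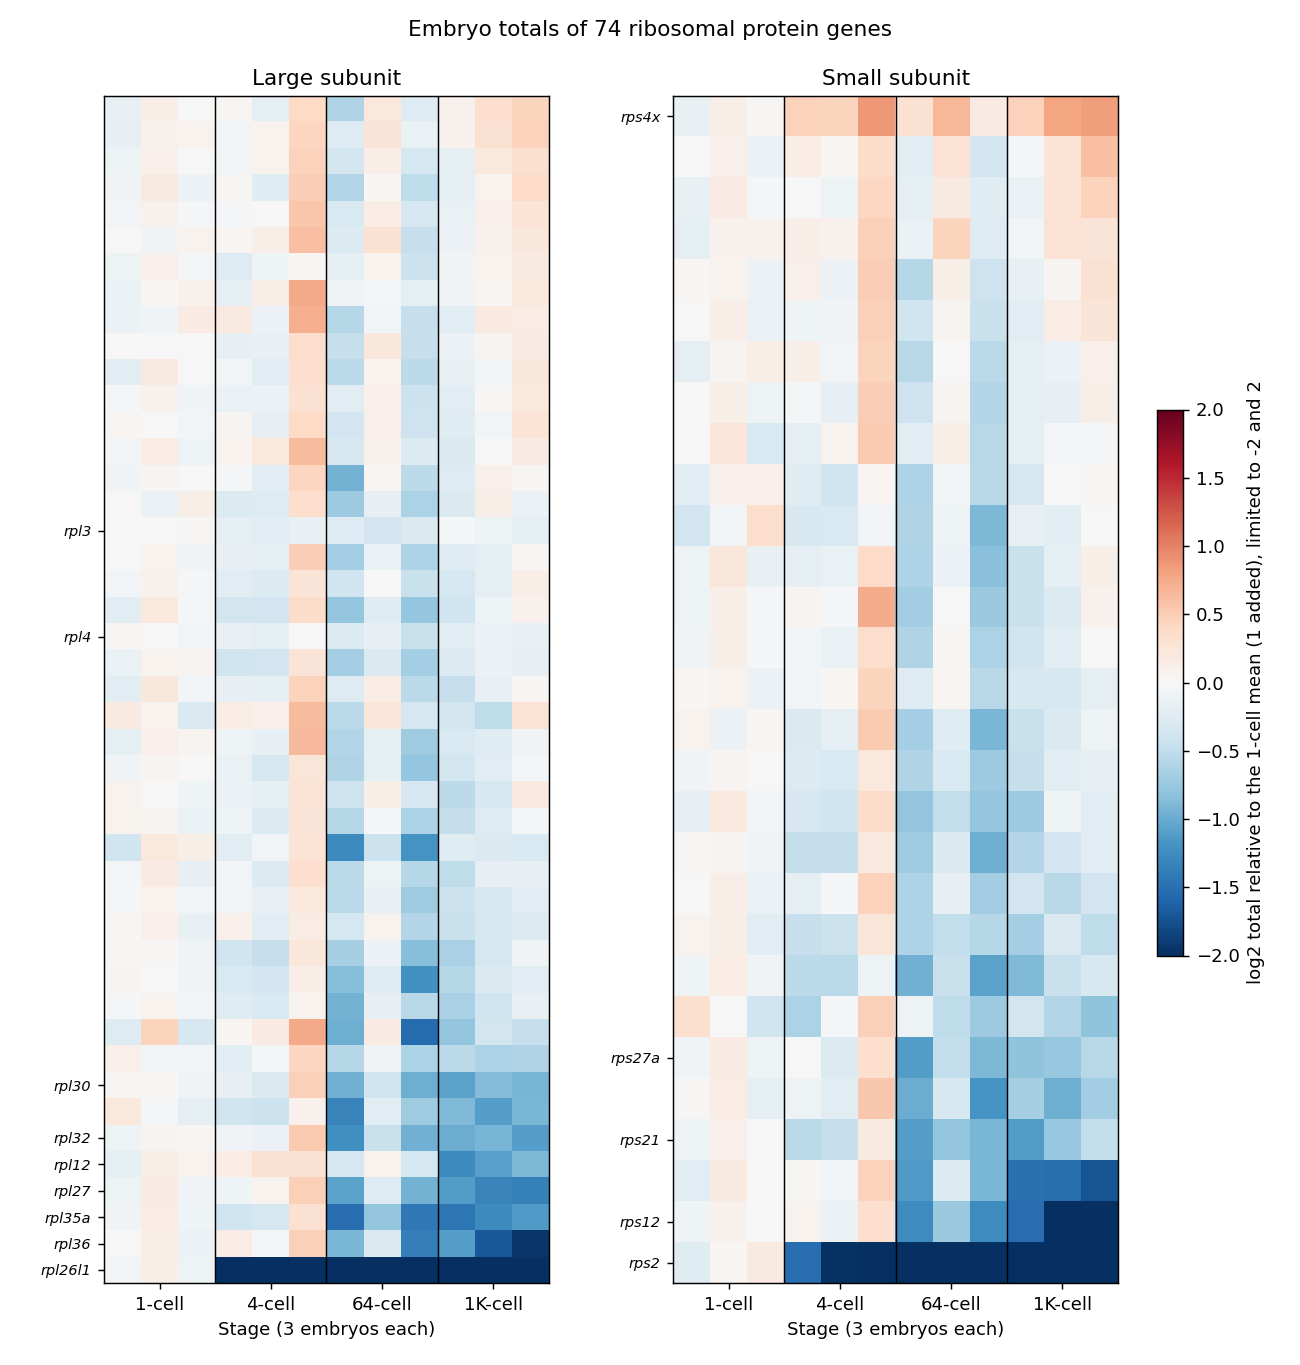
Heat maps of the 45 large subunit and 29 small subunit genes (one per line, some of those named in the text labelled) in the 12 embryos (columns, grouped by stage), coloured by the log2 embryo total relative to the 1-cell mean with 1 count added and limited to -2 and 2. *rpl26l1* is at the lower limit in all embryos after the 1-cell stage, *rps2* is low from the 4-cell stage on, and most other genes stay near 0, with 4-cell replicate 3 above its stage for 71 of 74 genes.

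Across the 4 stages, 12 of the 74 members changed (edgeR quasi-likelihood test, Benjamini-Hochberg adjusted p under 0.01 over all genes), next to 17% of all genes. They included *rpl12*, *rpl26l1*, *rpl27*, *rpl30*, *rpl32*, *rpl35a* and *rpl36* of the large and *rps2*, *rps12*, *rps21* and *rps27a* of the small subunit. With copies added 5 changed (*rpl12*, *rpl26l1*, *rps2*, *rps21* and *rps27a*), again next to 17% of all genes. In the libraries under 4400000 counts 3 did, and the all-gene share of that setting is not given.

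From the 1-cell to the 4-cell stage, 2 members fell and none rose, next to 4.81% of all genes lower and 5.27% higher. The same genes were called with copies added, next to 4.88% lower and 5.27% higher. The 4-cell embryos lay entirely above the 1-cell embryos for 3 members (17.8% of all genes) and entirely below them for 4 (18.7% of all genes). The first of the 2 was *rpl26l1*, a paralog of the large subunit gene *rpl26*, whose own symbol was not among those counted. It had 156, 178 and 151 normalized counts in the 1-cell embryos, 0 in all 4-cell embryos, 0, 3.74 and 0 in the 64-cell embryos and again 0 in all 1K-cell embryos. It was counted in 14 of 14 1-cell libraries and in none of the 15 4-cell libraries. The 4-cell total was at least 149-fold lower than the 1-cell total, with 3 counts over the group as the floor (adjusted p = 0.000648). Its copy was also at 0 in the 4-cell embryos, and at the 1K-cell stage member and copy together had 64.1, 106 and 34.4 normalized counts, against 156, 189 and 151 in the 1-cell embryos (log2 change -1.28 ± 0.55, adjusted p = 0.115). The fall to the 4-cell stage was thus called with and without the copy, and that to the 1K-cell stage was not past the threshold when both were summed.

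The second was *rps2*, which encodes a protein near the mRNA entry channel of the small subunit and for which no copy without a symbol was listed. It had 964, 1173 and 1286 normalized counts in the 1-cell embryos, 394, 289 and 130 in the 4-cell embryos, 133, 148 and 142 in the 64-cell embryos and 267, 274 and 119 in the 1K-cell embryos. All 1-cell embryos were above all later embryos. The 4-cell over 1-cell change was -2.07 ± 0.35 on the log2 scale (adjusted p = 0.00126) and the 1K-cell over 1-cell change was -2.38 ± 0.36 (adjusted p = 0.00027). In the libraries under 4400000 counts these were -2.13 (adjusted p = 0.0022) and -2.52 (adjusted p = 0.0006). Of its 2 transcripts, AMEXTC_0340000135282 fell to 279, 197 and 81.3 in the 4-cell embryos, against 894, 1050 and 1124 in the 1-cell embryos (log2 change -2.45, adjusted p = 0.00136), and the other was not called.

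From the 4-cell to the 64-cell stage no member was called by edgeR, next to 0.554% of all genes higher and 0% lower. At an unadjusted p under 0.05 there were 36 members, and DESeq2 called 4, all lower. With copies added edgeR also called none, next to 0.535% higher, with 33 at an unadjusted p under 0.05. All-gene shares at an unadjusted p under 0.05 and by DESeq2 are not given, so these member counts have no background here. The estimates without copies lay on one side, with 73 of 74 negative. Their median was -0.43 on the log2 scale (-0.42 in the large and -0.44 in the small subunit), next to 0.03 over all genes. The embryos of the 64-cell stage lay entirely below those of the 4-cell stage for 18 members (24.3%), next to 2.62% of all genes. Single embryos weighed on this step. 4-cell replicate 3 was the highest of its stage for 71 members (39.4% of all genes) and 64-cell replicate 2 for 72 (38.2% of all genes). Without 4-cell replicate 3 the median was -0.23 with 72 members negative, and without 64-cell replicate 2 it was -0.62, with 4 members called. The all-gene share without that embryo is not given. The mitochondrial ribosomal proteins, which build a separate ribosome inside mitochondria, had 60 of 65 negative estimates with a median of -0.24, and none was called by edgeR.

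From the 64-cell to the 1K-cell stage *rpl12* alone was called, and its direction depended on which transcripts were summed. *rpl12* encodes a protein at the base of the stalk of the large subunit. The transcript carrying the symbol had 196, 224 and 254 normalized counts in the 1K-cell embryos, against 378, 501 and 371 in the 64-cell embryos and 413, 515 and 499 in the 1-cell embryos. Its log2 change was -0.89 ± 0.16 over the 64-cell stage (adjusted p = 0.00216, next to 0.101% of all genes lower and 4.97% higher) and -1.08 ± 0.16 over the 1-cell stage (adjusted p = 0.0002). The copy of *rpl12* had 782, 769 and 692 normalized counts in the 1K-cell embryos, against 55.3, 65.9 and 70.0 in the 1-cell embryos and 53.1, 40.0 and 33.5 in the 64-cell embryos. It was counted in all 15 1K-cell libraries, shallow and deep. Its 1K-cell over 1-cell change was 3.55 on the log2 scale (adjusted p = 1.12e-06). Member and copy together had 981, 993 and 945 normalized counts in the 1K-cell embryos, against 469, 581 and 569 in the 1-cell embryos and 432, 542 and 405 in the 64-cell embryos, so that the sum rose by 1.08 ± 0.13 over the 64-cell stage (adjusted p = 0.000126) and by 0.85 ± 0.13 over the 1-cell stage (adjusted p = 0.000324). In the libraries under 4400000 counts the symbol alone changed by -0.99 over the 1-cell stage (adjusted p = 0.0229). The fall of the symbol alone over the 64-cell stage was not called without 1K-cell replicate 1, without 1K-cell replicate 2, or in those libraries. It was also not called with sections A, B, C and E only. With copies added 1 member rose in that step (*rpl12*) and none fell, next to 5.16% of all genes higher and 0.102% lower. The 1K-cell embryos lay entirely above the 64-cell embryos for 3 members (12.2% of all genes) and entirely below for 4 (7.82% of all genes). In that step 60 of 74 members had a positive estimate without copies. The median was 0.19 on the log2 scale, next to 0.01 over all genes.

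Between the ends of the series, 10 members fell and 1 rose in 1K-cell over 1-cell embryos, next to 6.04% of all genes lower and 11.8% higher. The members that fell were 7 of the large and 3 of the small subunit, and the riser was *rps4x* of the small subunit. The estimates of 55 of 74 members were negative with a median of -0.19 on the log2 scale (0.01 over all genes), and 30 members had their 1K-cell embryos entirely below the 1-cell embryos (40.5%, next to 20.9% of all genes). The 1K-cell embryos lay entirely above for 2 members, next to 25.1% of all genes. These estimates and counts are of sums without copies. The part that the division of counts had in them was not tested.

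Most of these falls were in members whose copies were counted in the deep 1K-cell libraries. *rps12* had 176, 94.5 and 106 normalized counts in the 1K-cell embryos, against 478, 543 and 505 in the 1-cell embryos (log2 change -2.02 ± 0.23, adjusted p = 3.12e-05). With its copy it had 341, 359 and 411, against 478, 543 and 505 (-0.46 ± 0.17, adjusted p = 0.0631), and in the libraries under 4400000 counts the change was -0.54 (adjusted p = 0.0781). The change was thus smaller with the copy added and, for the symbol alone, in the shallower libraries, and it passed the threshold in neither. With the copy added the 1K-cell embryos were still below all 1-cell embryos. *rpl36* had 154, 101 and 85.2 in the 1K-cell embryos, against 327, 362 and 300 in the 1-cell embryos (-1.54 ± 0.28, adjusted p = 0.00106). With its copy it had 354, 352 and 404, against 327, 362 and 300 (0.16 ± 0.19, adjusted p = 0.577). For *rpl36* the estimate thus turned positive and the embryos of both stages overlapped.

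The other falls of the large subunit had the same outline. *rpl27* had 170, 148 and 144 in the 1K-cell embryos, against 343, 414 and 353 in the 1-cell embryos (-1.26 ± 0.22, adjusted p = 0.000819), and changed by -0.09 with its copy (adjusted p = 0.844). It was followed by *rpl32* and *rpl30*, and the call of *rpl32* was lost without 1K-cell replicate 3. *rpl32* had 464, 485 and 431, against 867, 968 and 948 (-1.01 ± 0.20, adjusted p = 0.00229), and changed by -0.19 with its copy (adjusted p = 0.521). *rpl30* had 363, 416 and 398, against 779, 781 and 726 (-0.96 ± 0.20, adjusted p = 0.00319), and changed by -0.12 with its copy (adjusted p = 0.730), and its call was lost without 1-cell replicate 1 or 2 or without any 1K-cell replicate. *rpl35a*, which in humans is one of the genes mutated in Diamond-Blackfan anemia, had 123, 139 and 153 in the 1K-cell embryos, against 321, 372 and 317 in the 1-cell embryos (-1.28 ± 0.23, adjusted p = 0.00109). With its copy it changed by -0.52 (adjusted p = 0.0760), and its 1K-cell embryos (205 to 255) were still below its 1-cell embryos (317 to 372). In the libraries under 4400000 counts the symbols alone changed by -0.06 (*rpl36*), -0.16 (*rpl27*), -0.28 (*rpl30*), -0.36 (*rpl32*) and -0.87 (*rpl35a*) on the log2 scale, none past the threshold. Over all members with copies added, 2 rose (*rpl12* and *rps4x*) and 1 fell (*rps2*), next to 11.8% of all genes higher and 6.09% lower. In the libraries under 4400000 counts none rose and 3 fell (*rpl26l1*, *rps2* and *rps21*). The all-gene shares of that fit are not given, and those above do not apply to it.

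*rps4x*, the X-linked of the human genes for the small subunit protein eS4, had no listed copy without a symbol. It had 733, 877 and 822 normalized counts in the 1-cell embryos, 1116, 1110 and 1475 in the 4-cell embryos, 999, 1281 and 909 in the 64-cell embryos and 1114, 1406 and 1448 in the 1K-cell embryos. All 9 later embryos lay above the 1-cell embryos. The 1K-cell over 1-cell change was 0.71 ± 0.16 (adjusted p = 0.00529), the test across the 4 stages was not past the threshold (adjusted p = 0.0223), and the call was lost in the libraries under 4400000 counts (0.71, adjusted p = 0.0212), with sections A, B, C and E only, with sums of normalized counts without 1-cell replicate 3, without any 1-cell replicate and without 1K-cell replicate 2 or 3 (adjusted p up to 0.0281 over all settings). Of its transcripts, AMEXTC_0340000067480 (log2 change 4-cell over 1-cell 1.24, adjusted p = 0.00461) and AMEXTC_0340000221048 (1.28, adjusted p = 0.00124) rose by the 4-cell stage.

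Other members with roles of their own had no call in 1K-cell over 1-cell embryos, which does not show that their levels were kept. Of the stalk proteins that recruit the translation factors, *rplp0* averaged 982 ± 173 normalized counts in 1K-cell and 897 ± 61 in 1-cell embryos, *rplp1* averaged 1175 ± 164 and 1161 ± 152, and *rplp2* averaged 1116 ± 195 and 1452 ± 72 (SD, n = 3 each; *rplp2* log2 change -0.38, adjusted p = 0.152, and -0.26 with its copy, adjusted p = 0.309). *rpl5* and *rpl11*, which carry 5S rRNA into the large subunit and bind Mdm2 when assembly fails, averaged 2200 ± 334 against 2177 ± 131 (0.01, adjusted p = 0.960) and 1566 ± 199 against 1274 ± 125 (0.30, adjusted p = 0.302). *rps6*, the target of S6 kinase, averaged 627 ± 67 in 1K-cell and 652 ± 66 in 1-cell embryos (-0.06, adjusted p = 0.854). *rps27a*, made as a fusion with ubiquitin, averaged 590 ± 62 in 1-cell embryos, 607 ± 128 in 4-cell embryos, 335 ± 77 in 64-cell embryos and 363 ± 33 in 1K-cell embryos. It changed across the stages (adjusted p = 0.00415) while 1K-cell over 1-cell missed the threshold (-0.70, adjusted p = 0.0131, and -0.59 in the libraries under 4400000 counts, adjusted p = 0.104). Of the paralog pairs, *rpl22l1* averaged 87.5 ± 7.4 in 1K-cell and 172 ± 24 in 1-cell embryos (-0.97 ± 0.26, adjusted p = 0.0147). With its copy *rpl22l1* averaged 123 ± 27 and 172 ± 24 (-0.48, adjusted p = 0.181), and in the libraries under 4400000 counts the symbol alone changed by -0.41 (adjusted p = 0.486). Its partner *rpl22* averaged 732 ± 142 and 680 ± 77 (0.11, adjusted p = 0.764). *rpl7l1* changed by -0.34 (adjusted p = 0.135) and *rpl7* by -0.24 (adjusted p = 0.363). In the libraries under 4400000 counts *rpl5* changed by 0.01, *rpl11* by 0.16 and *rps6* by -0.05. None of these 1K-cell over 1-cell changes passed the threshold.

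The sums hid exchanges among transcripts of 1 symbol. Of the 74 symbols 56 had more than 1 transcript (139 transcripts). Taken singly, 8 of the 157 member transcripts rose and 15 fell in 4-cell over 1-cell embryos, in 14 symbols, next to 5.48% of all transcripts higher and 5.47% lower. In 6 symbols transcripts moved in both directions: *rpl13a*, *rpl23*, *rpl31*, *rpl38*, *rps16* and *rps29*. The share of all symbols with transcripts moving in both directions was not counted, so these 6 have no background here. None of these 6 sums was called in that step. The 4-cell and 1-cell libraries had few counts on copies at any depth. This does not measure a division of counts between transcripts that carry a symbol, as seen above for *rps15a*. The part of such a division in these exchanges was not tested.

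*rps29*, which encodes a zinc-binding protein of the small subunit head, was the clearest case. Its transcript AMEXTC_0340000065870 had 516, 508 and 690 normalized counts in the 4-cell embryos, against 1.06, 0 and 3.68 in the 1-cell embryos, and stayed at 354 to 585 in the 64-cell and 1K-cell embryos. The 4-cell over 1-cell change was 8.45 ± 0.46 on the log2 scale (adjusted p = 1.92e-07). Transcript AMEXTC_0340000067769 had 0.945, 0 and 0 in the 4-cell embryos, against 279, 417 and 346 in the 1-cell embryos (-9.50 ± 0.86, adjusted p = 1.1e-05). Transcript AMEXTC_0340000069748 had 0.945, 1.17 and 0, against 420.02, 407 and 360 (-8.88 ± 0.62, adjusted p = 1.22e-06). The 1-cell embryos thus held transcripts that were all but missing at the 4-cell stage, and the reverse. Their sum was 520, 511 and 694 in the 4-cell embryos, against 704, 826 and 710 in the 1-cell embryos (-0.38, adjusted p = 0.225).

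**Figure D4:**
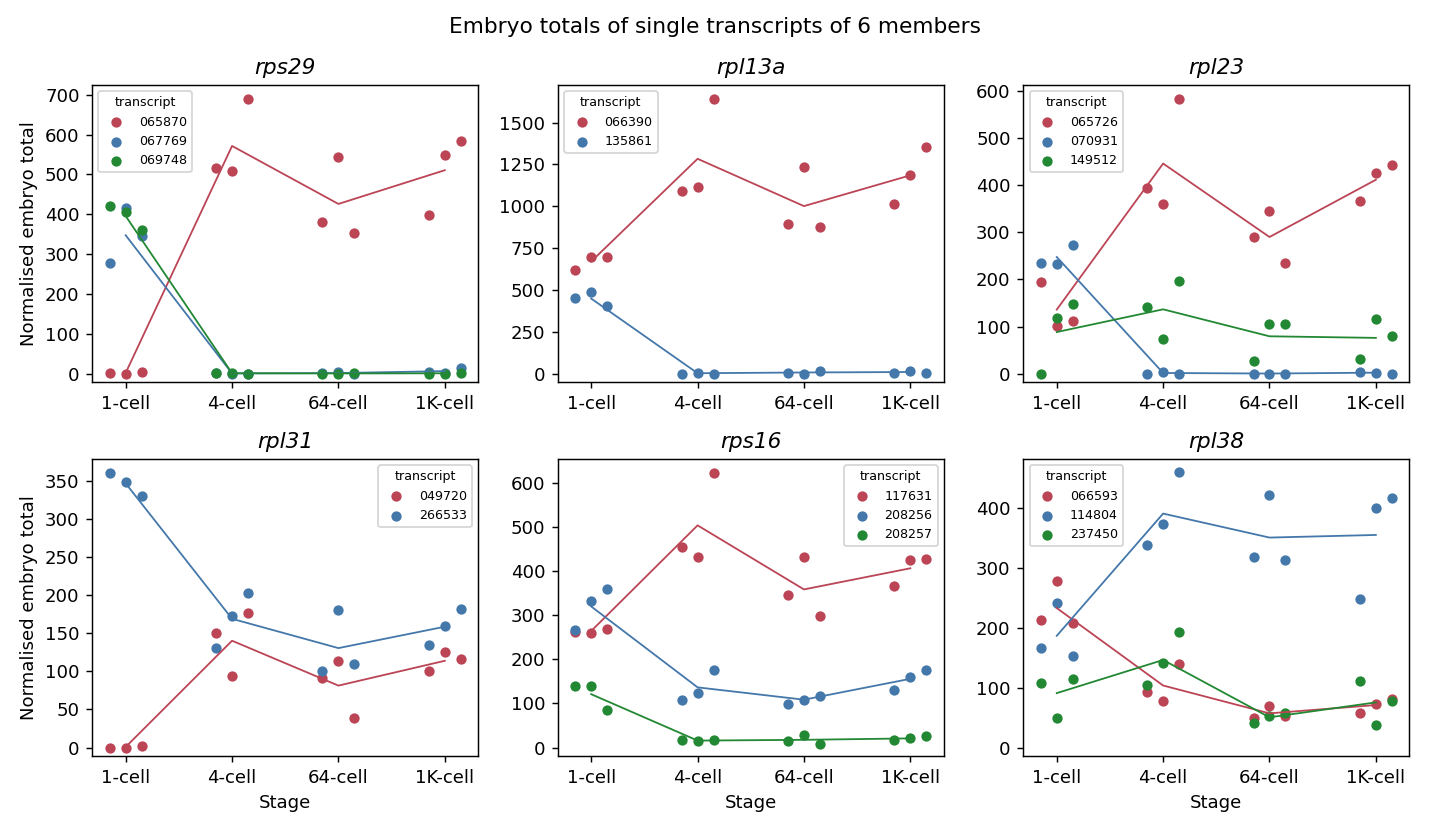
Normalized embryo totals of single transcripts (one colour each, named by the last 6 digits of the identifier) at the 4 stages for 6 genes, with 1 point per embryo and lines through the stage means. For *rps29* one transcript is at 508 to 690 in 4-cell embryos and at most 3.68 in 1-cell embryos while the other transcripts are at 279 to 420.02 in 1-cell embryos and at most 1.17 in 4-cell embryos.

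The other exchanges were of the same kind and smaller. For *rpl13a*, AMEXTC_0340000135861 had 0, 5.84 and 0 in the 4-cell embryos, against 454, 485 and 405 in the 1-cell embryos (-7.85 ± 1.06, adjusted p = 0.000254), and AMEXTC_0340000066390 had 1094, 1114 and 1643, against 620, 696 and 694 (0.94 ± 0.19, adjusted p = 0.0041). The first was counted in 14 of 14 1-cell and in 1 of 15 4-cell libraries. For *rpl23*, AMEXTC_0340000070931 had 0, 3.50 and 0 in the 4-cell embryos, against 236, 234 and 274 in the 1-cell embryos (-7.67, adjusted p = 0.000223). AMEXTC_0340000065726 had 394, 361 and 584, against 196, 101 and 112 (1.71, adjusted p = 0.000862). For *rpl31*, AMEXTC_0340000049720 had 150.3, 93.4 and 177 in the 4-cell embryos, against 0, 0 and 2.46 in the 1-cell embryos (7.31, adjusted p = 2.38e-05), and was counted in 15 of 15 4-cell and 1 of 14 1-cell libraries. AMEXTC_0340000266533 of the same gene had 130.5, 173 and 203, against 360.5, 349 and 330 (-1.04, adjusted p = 0.00954). For each of these transcripts, named because they were called, the embryos of the 2 stages did not overlap.

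*rps16* and *rpl38* shifted by smaller steps. For *rps16*, AMEXTC_0340000208257 had 16.1, 15.2 and 16.3 in the 4-cell embryos, against 139, 139 and 84.7 in the 1-cell embryos (-2.92, adjusted p = 0.00117), AMEXTC_0340000208256 changed by -1.23 (adjusted p = 0.00157) and AMEXTC_0340000117631 by 0.93 (adjusted p = 0.00292). For *rpl38*, which in the mouse is needed for normal patterning of the axial skeleton, AMEXTC_0340000066593 changed by -1.17 (adjusted p = 0.00709) and AMEXTC_0340000114804 by 1.06 (adjusted p = 0.00899). One transcript of *rplp1* fell and was high again later. AMEXTC_0340000066202 averaged 32.3 in 4-cell and 532 in 1-cell embryos (-4.03, adjusted p = 1.47e-06), and it averaged 187 in 64-cell and 443 in 1K-cell embryos. At the 1K-cell stage it averaged 128 per deep library and 5.76 per shallow library.

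Transcripts that were present in the 1-cell embryo and missing afterwards were counted by a fixed rule on embryo sums before normalization. The rule asked for at least 50 counts in every 1-cell embryo and at most 20 in every later one. It took in 8 of the 157 member transcripts (5.10%) and 468 of all 28909 transcripts (1.62%). Neither share was limited to transcripts that reached 50 counts in every 1-cell embryo, so the 2 shares are not matched for level. The 8 were 2 transcripts of *rps29* and 1 each of *rpl13a*, *rpl23*, *rpl26l1*, *rpl35*, *rpl36a* and *rps25*. Similar transcripts of 1 gene share reads in the authors' counting, so the size of each exchange is uncertain. Parents and stage cannot be told apart here either.

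Later steps held fewer changes of single member transcripts. From the 4-cell to the 64-cell stage 1 member transcript rose and none fell (AMEXTC_0340000066202 of *rplp1*), next to 0.36% of all transcripts higher and 0% lower. From the 64-cell to the 1K-cell stage 2 rose, of *rplp1* and *rpl3*, and 1 fell, of *rpl12*, next to 3.12% higher and 0.0623% lower. In 1K-cell over 1-cell embryos 8 rose and 25 fell, in 25 symbols, next to 10.2% of all transcripts higher and 6.33% lower. In the libraries under 4400000 counts 4 rose and 13 fell, and the shares of all transcripts in that setting are not given. Of the 25 listed transcripts without a symbol, which are the 24 copies and 1 listed for both *rpl36a* and *rpl36al* and added to neither, 12 rose and none fell in 1K-cell over 1-cell embryos. From the 4-cell to the 64-cell stage 5 of these 25 rose and none fell, next to 0.36% of all transcripts higher and 0% lower. From the 64-cell to the 1K-cell stage 1 rose and none fell. The part of library depth in these rises was not tested.

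Along the animal-vegetal axis most members leaned to the animal side, with D and E together lower than A and B. At the 1-cell stage this was not a peak at the animal pole. Section D (n = 2) had the highest mean for 31 members (41.9%, next to 18.1% of all genes) and section A for 6 (8.11%, next to 21.3%). The mean of D lacks replicate 3, which the other means take in, so differences between embryos enter this ranking. At the 1-cell stage 6 members were called animal, with a vegetal (D, E) minus animal (A, B) difference below 0, and none vegetal, next to 3.02% of all genes animal and 8.72% vegetal. *rpl4* had 296 ± 11, 323 ± 24, 272 ± 34, 252 ± 1.6 (n = 2) and 168 ± 24 normalized counts from A to E (SD, n = 3 elsewhere), a difference of -0.59 ± 0.09 on the log2 scale (adjusted p over sections = 0.00192). *rps4x* averaged 170, 188, 158, 123 and 108 from A to E (-0.63 ± 0.08, adjusted p = 0.00193). *rpl6* averaged 280, 301, 291, 239 and 167 (-0.54 ± 0.10, adjusted p = 0.00703), *rpl3*, a protein near the peptidyl transferase center, averaged 276, 296, 274, 264 and 177 (-0.39 ± 0.08, adjusted p = 0.00354), and *rpl7* averaged 176, 193, 198, 185 and 101 (-0.46 ± 0.11, adjusted p = 0.00612). The level dropped mainly in section E in *rpl3*, *rpl6* and *rpl7*, and already in D in *rps4x*. *rpl27a* was called with a difference of -0.26 (adjusted p = 0.0079) and averaged 214 in D and 97.0 in E. The difference was below 0 in every 1-cell embryo for 33 members (44.6%, next to 26.4% of all genes). In 1-cell replicate 3 its vegetal side was E alone, since section D of that embryo is not analysed. With copies added the same 6 were called. Leaving out any 1-cell embryo left 0 or 1 calls, and DESeq2 called 12 (10 animal, and *rplp2* and *rps9* vegetal). The all-gene shares of these settings are not given.

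At the 4-cell, 64-cell and 1K-cell stages edgeR called no member. Of all genes it called 3.73% vegetal and 0.407% animal among 4-cell sections (4.14% in all), 5.41% vegetal and 1.33% animal among 64-cell sections (6.74% in all), and 5.2% vegetal and 0.787% animal among 1K-cell sections (5.99% in all). At an unadjusted p under 0.05 there were 9, 29 and 9 members in these 3 stages, and DESeq2 called 1 (*rpl4*), 9 and 3 (*rpl3*, *rpl4* and *rps13*). These counts are likewise given without all-gene shares. Estimates of the vegetal minus animal difference were negative for 52, 71, 72 and 67 of the 74 members from the 1-cell to the 1K-cell stage. Their medians were -0.14, -0.26, -0.42 and -0.21 on the log2 scale, next to -0.02, 0, -0.03 and -0.02 over all genes. The difference was below 0 in every embryo of the stage for 13 members at the 4-cell stage (17.6%, next to 17.8% of all genes). It was so for 47 at the 64-cell stage (63.5%, next to 23.3%) and 30 at the 1K-cell stage (40.5%, next to 23.6%). The share of members at the 4-cell stage was thus near that of all genes. Section E was the lowest of the 5 for 49, 41, 36 and 48 members, next to 30.1, 31.1, 30.7 and 28.7% of all genes.

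When the libraries of all stages were fitted together, 9 members were called animal and none vegetal, next to 10.6% of all genes animal and 13.4% vegetal. They included *rpl3* (-0.44 ± 0.05, adjusted p = 7.34e-09), *rpl4* (-0.43 ± 0.05, adjusted p = 7.01e-09), *rpl5*, *rpl6*, *rpl8*, *rpl27a*, *rplp0* and *rps21* (-0.45 ± 0.10, adjusted p = 0.00294), with differences from -0.30 to -0.45 on the log2 scale. The estimates of 72 of 74 members were negative, with a median of -0.28 (-0.03 over all genes). With a term for each embryo, which pairs the sections of 1 embryo and which the fit above lacks, 30 members were called. The all-gene shares above do not apply to that fit, so this count has no background here. With copies added 11 members were called, *rpl36* and *rps23* besides the 9. Without 1-cell replicate 3 the count was 4 and without 4-cell replicate 2 it was 16. All-gene shares with copies added or with an embryo left out are not given for this fit. The interaction of stage and section called no member by edgeR, next to 1.33% of all genes, with no member at an unadjusted p under 0.05 and none called by DESeq2, so no change of the profile between stages was detectable at this depth. The mitochondrial ribosomal proteins also leaned to the animal side: 55 of 65 estimates were negative with a median of -0.18, and 16 were called animal and 1 vegetal.

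The share of all counts held by the 74 genes was read as well, which scales each library by its total. Genes in general were lower on the vegetal side under that scaling. The median vegetal minus animal difference in 1-cell embryos was -0.44 on the log2 scale for the members and -0.33 over all genes, and over all stages it was -0.41 and -0.17. From A to E it was 0.324 ± 0.012, 0.344 ± 0.016, 0.337 ± 0.004, 0.322 ± 0.015 (n = 2) and 0.197 ± 0.046% at the 1-cell stage (SD, n = 3 elsewhere). At the 1K-cell stage it was 0.276 ± 0.026, 0.278 ± 0.040, 0.276 ± 0.040, 0.247 ± 0.047 and 0.217 ± 0.023%. The share was lowest in E in 11 of the 12 embryos, the exception being 4-cell replicate 2 with its lowest value in A. The ratio of E over A ranged from 0.525 to 1.21 over the embryos. With copies added the 1K-cell shares were 0.290 ± 0.015, 0.301 ± 0.044, 0.299 ± 0.055, 0.263 ± 0.042 and 0.229 ± 0.033%.

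**Figure D5:**
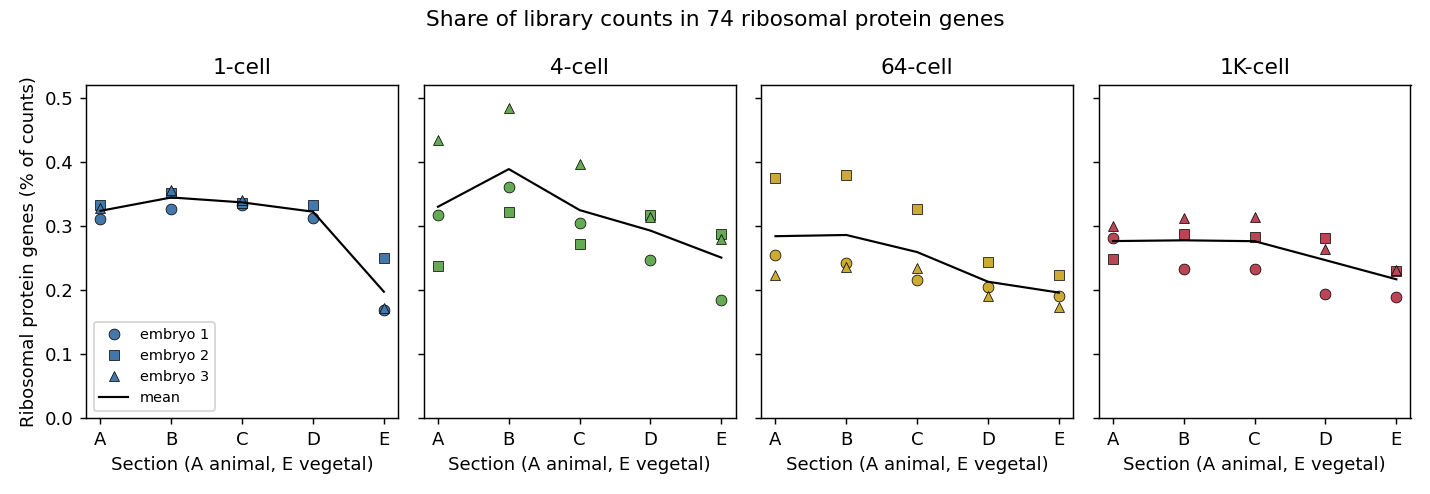
Percentage of all library counts held by the 74 ribosomal protein genes in sections A (animal) to E (vegetal), with 1 panel per stage, 1 symbol per embryo and a line through the means. In the 1-cell panel the means run between 0.322 and 0.344% from A to D and end at 0.197% in E, and in the 1K-cell panel they run from 0.276% in A to 0.217% in E.

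Genes of the same pathway outside the rule were read in 1K-cell over 1-cell embryos. Of 4 further ribosomal proteins, *rpl36al* fell (2.53 ± 3.63 normalized counts in 1K-cell and 76.2 ± 11.6 in 1-cell embryos, log2 change -4.86 ± 1.12, adjusted p = 0.00777), next to 6.04% of all genes lower and 11.8% higher, and *fau* and *rack1* had log2 changes of 0.23 and -0.07 that did not pass the threshold. The transcript listed for both *rpl36a* and *rpl36al* (AMEXTC_0340000067686) had 321, 575 and 340.2 normalized counts in the 1K-cell embryos, against 0, 0 and 17.2 in the 1-cell embryos. It is not in the sum of *rpl36al*, and its part in the fall of that symbol was not tested. Of 115 ribosome biogenesis factors 2 rose and 7 fell, with a median of -0.14, so that the share that fell was near that of all genes and the share that rose was below it. *eif6*, which keeps the large subunit from joining the small one, averaged 3.41 ± 2.17 in 1K-cell and 185 ± 44 in 1-cell embryos (-5.72 ± 0.57, adjusted p = 9.09e-06). *nop10*, of the box H/ACA particles that modify rRNA, averaged 176 ± 5.1 and 356 ± 19 (-1.01 ± 0.18, adjusted p = 0.000983), and *polr1e*, a subunit of RNA polymerase I, averaged 1911 ± 163 and 1253 ± 56 (0.61 ± 0.10, adjusted p = 0.000734). Of 23 other TOP mRNAs 1 rose (*vim*) and 2 fell (*eif3m* by 1.28 and *pabpc4* by 1.16 on the log2 scale), and 21 of the 23 estimates were negative. Of 65 mitochondrial ribosomal proteins 1 rose (*mrpl1*, 1.16 ± 0.20, adjusted p = 0.000619) and 2 fell, with a median of -0.05.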

How the data were processed

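Per the labels and the study's methods, reads from rRNA-depleted total RNA were trimmed (Trimmomatic), freed of mitochondrial and rRNA reads (SortMeRNA) and pseudo-aligned with kallisto 0.43.1 to the axolotl transcriptome AmexT_v34. The authors deposited kallisto's estimated counts per transcript and library as whole numbers. These were used, and the normalized tables and test results deposited beside them were not. Here (R 4.3.3) transcripts were summed per human symbol and sections per embryo. Sections were summed before normalization, so each section weighs in an embryo total by its sequencing depth. The study summed normalized counts instead. edgeR 4.0.16 (quasi-likelihood, limma 3.58.1) was fitted to all 21858 genes with median-of-ratios factors. The terms were stage for embryo totals, embryo and section within a stage, and stage, section and their interaction over all libraries. Calls needed a Benjamini-Hochberg adjusted p under 0.01 and a mean embryo total above 20 in at least 1 stage. Errors after ± are standard errors for log2 changes and SD for levels. For embryo totals single embryos are the replicates, so p-values measure the spread between embryos. Section tests within a stage have a term for embryo, so their p-values measure how far section differences vary between embryos. The fits over all stages have no such term and treat sections of 1 embryo as independent libraries, which they are not.

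Alternatives were TMM, library totals, filterByExpr, the top transcript, DESeq2 1.42.0, adjusted p under 0.05, sections A, B, C and E only, sums of normalized counts, and each embryo left out. Adding copies and leaving out libraries of 4400000 counts or more were chosen after seeing the data. Members and lists were chosen with earlier results of these data known. Members named singly were called ones with the largest changes, embryo totals that did not overlap between the stages and a mean total of at least 100, and others picked by role. A few genes are not reported here. On simulated data, 44% of 2-fold and 80% of 4-fold changes in 1K-cell over 1-cell totals were recovered (100 each among 21858 genes). Same-numbered embryos of different stages did not deviate together, and sections of 1 embryo share that embryo.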

Additional observations from a re-analysis of the deposited data

How the results depend on the processing

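Among the alternatives, the 2 falls from the 1-cell to the 4-cell stage (*rpl26l1* and *rps2*) kept direction and call in all 23 settings. Counts of calls below are given without the share of all genes called in the same setting. Adding copies changed the number of members called to 5 across stages, 3 in 1K-cell over 1-cell totals and 1 at the 64-cell section test, and reversed *rpl12* (1.08 over the 64-cell and 0.85 over the 1-cell stage) and *rpl36* (0.16). Libraries under 4400000 counts gave 3 calls across stages, 0 in 1K-cell over 64-cell, 3 in 1K-cell over 1-cell, and 17 transcripts in each transcript test. Sections A, B, C and E alone gave 4, 0 and 6 calls for the same 3 totals, and sums of normalized counts 6 across stages and 6 in 1K-cell over 1-cell. The top transcript gave 9 calls in 4-cell over 1-cell, 2 in the 1-cell and 1 in the 1K-cell sections. Library totals gave 3 calls in 1K-cell over 64-cell, 21, 1, 5 and 2 in the sections from the 1-cell to the 1K-cell stage and 41 over all stages (all-gene median -0.17). TMM gave 20 over all stages. DESeq2 gave 4 in 64-cell over 4-cell, 3 in 1K-cell over 64-cell, 12, 1, 9 and 3 in the sections, 18 over all stages and 47 transcripts across stages. An adjusted p under 0.05 gave 3 and 3 in the same totals, 11, 1, 5 and 3 in the sections, 24 over all stages, and 47 and 51 transcripts. Counting only transcripts with a symbol in the denominator, the share was 0.457, 0.486, 0.363 and 0.423% by stage. Leaving out 1 embryo gave 9 to 20 calls across stages, 2 to 3, 0 to 4, 0 to 1 and 8 to 13 in the 4 contrasts, 0 to 1, 0, 0 and 0 to 1 in the sections, 4 to 16 over all stages, 0 to 1 for the interaction, and 26 to 39 and 23 to 37 for the transcripts. The cause of these shifts was not tested.

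Replicate numbers did not pair embryos across stages (3 of 18 same-numbered pairs correlated over 0.1, from -0.15 to 0.16, and 5 of 12 embryos matched best with their own number). With the number as a replicate block the totals gave 12, 2, 0, 1 and 12 calls. With a replicate block for each embryo 30 members were called over all stages and 0 for the interaction, and without the term for embryo the sections gave 4, 0, 0 and 0. With 3 embryos per stage and 2-fold changes recovered in 44% of simulated cases, changes under 2-fold in single members were often not detectable, and 1 missing section limits the 1-cell totals of replicate 3.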
